A study of Mus musculus with 1152 samples.

Results

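Oligodendrocyte precursors are the cells of the adult brain that keep dividing after development and supply new oligodendrocytes, and here the precursor wells that carried messenger RNA of a dividing cell were set against the precursor wells that did not. Of 1152 wells, 857 held at least 50000 reads, and 218 of those were precursors. A precursor well had Pdgfra, the receptor for platelet-derived growth factor A, at 100 CPM or more (CPM, reads of a gene per 1000000 reads of the well). It also had the proteoglycan genes Cspg5 and Ptprz1 at 200 CPM or more, Enpp6, a gene of newly forming oligodendrocytes, below 200 CPM, and less than 5% of its reads on mitochondrially encoded genes. The classes were chosen by the measured level of 5 genes of the cell cycle, Top2a, Mki67, Cdk1, Aurkb and Ccnb1. The 16 cycling wells had at least 3 of the 5 at 20 CPM or more, the 182 resting wells had none, and the other 20 precursors, 15 with 1 such gene and 5 with 2, stayed in neither class.

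The cells came from brains of adult C57BL/6 mice of both sexes and of 2 reporter lines, Pdgfra-H2BGFP and Tagl-CREERT2;Ai14. In the first line a nuclear green fluorescent protein follows the Pdgfra gene, and in the second a Cre recombinase that is active only with tamoxifen switches on a red fluorescent protein. Vessel fragments were pulled out with magnetic beads carrying antibody to CD31, digested further, and fluorescent cells were sorted into plates for SMART-seq2, which reads whole transcripts of single cells. The precursors are therefore those that were in or attached to such fragments or carried over with them, and nothing in the labels says from which mouse or which line a well came. All wells were therefore treated as 1 sample. No p-value was computed, and every difference below is a description of these wells.

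A cell that divides passes from G1, where growth factors and cyclin D decide on entry, through S phase, where DNA is copied, to G2 and mitosis. Cyclin-dependent kinases drive each step, E2F factors switch on the S phase genes, and a later wave of transcription, which acts through the CHR element and CCAAT boxes of promoters, supplies the mitotic genes. In oligodendrocyte precursors, platelet-derived growth factor sustains division, and precursors leave the cycle before they differentiate.

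The wells fell into 3 sets by the names of their columns. In the set 600s_182s, 14 of 173 precursors were cycling, or 8.09% (exact binomial 95% interval 4.49 to 13.2). In the set 613s there were 2 of 25, or 8.0% (0.984 to 26.0), and in the set 1025s_182s 0 of 20, which allows up to 16.8% by the same interval. Over all sets 7.34% of precursors were cycling (4.25 to 11.6). The intervals overlap and cover counting error only. Whether the share differs between the sets was not tested. Outside the precursors, 2 of 639 wells had at least 3 of the 5 genes at 20 CPM, or 0.313% (0.0379 to 1.13). Both had Pdgfra and Ptprz1 above the limits and Cspg5 below it, at 151 and 166 CPM, and 1 of them also had 5.92% mitochondrial reads. None of the 113 wells with Enpp6 at 200 CPM or more had 3 of the 5 genes, which allows up to 3.21%.

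The classes overlapped in depth. The cycling wells held 97561 to 1061289 reads with a median of 284788, and the resting wells 54417 to 931857 with a median of 280470. Thinned to 50000 reads each, cycling wells showed a median of 4967 genes (4216 to 5916) and resting wells 4149 (1787 to 6291). The resting wells include 19 of 1025s_182s, a set without cycling wells, which showed 1787 to 4524 genes. The part of the sets in the difference was not tested. The share of mitochondrial reads had a median of 1.65% and 1.73%. Reads carry no molecular identifiers, so the intervals given for CPM are exact Poisson 95% intervals on reads and cover counting error only.

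The levels of the rule's own genes describe the choice. Top2a, the topoisomerase that untangles replicated DNA, lay at 20.7, 907 and 3291 CPM in the lowest, median and highest cycling well, and no resting well was above 18.4 CPM. Mki67, which encodes the Ki-67 protein of mitotic chromosomes, lay at 115, 956 and 2014 CPM, with the highest resting well at 15.6. Cdk1, the kinase of mitotic entry, reached 20 CPM in 15 of the 16 cycling wells (median 253 CPM). Ccnb1, its partner cyclin B1, did so in 13 (median 537 CPM), and Aurkb, a kinase that corrects chromosome attachment, in 9 (median 226 CPM). The wells just inside and just outside the limit were close: the lowest cycling level that passed was 20.7 CPM for Top2a and 20.6 CPM for Ccnb1, and resting wells reached 18.4 CPM for both genes. At 50000 reads, 20 CPM is a single read. Among the genes that defined a precursor, Pdgfra had a median of 1324 CPM in cycling and 1134 CPM in resting wells, Cspg5 1163 and 1569, and Ptprz1 2357 and 3025. Of the 9 precursor markers, 3 are these genes of the rule. The other 6 were present in both classes, with summed levels of 6720 CPM in cycling and 8732 CPM in resting wells.

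Genes of G2 and mitosis that the rule did not use separated the classes as well. Of 184 such genes, the cycling wells had 63 to 155 at 20 CPM or more (median 116.5) and the resting wells 7 to 57 (median 24), so the classes did not overlap. These genes follow the 5 of the rule by known biology, and their separation describes the choice rather than a separate result. S phase genes did overlap. Of 88, the cycling wells had 8 to 60 (median 28.5) and the resting wells 0 to 39 (median 6). At or above the lowest cycling well lay 66 of 182 resting wells, and 12 resting wells had at least 20 S phase genes. The resting class therefore holds wells with S phase messenger RNA and none of the 5 genes at 20 CPM.

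**Figure D1:**
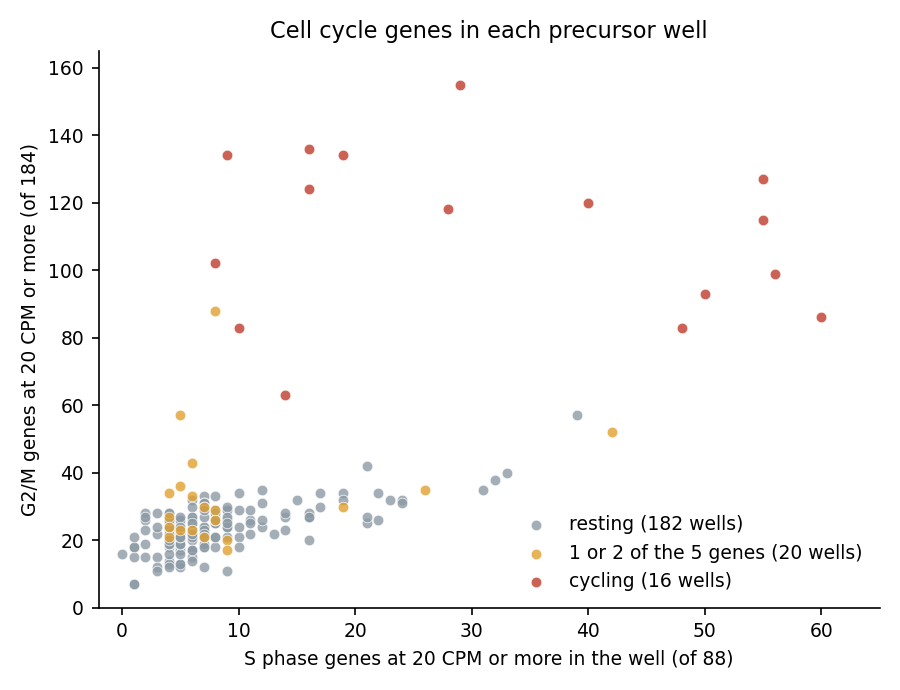
Each point is a precursor well, with its number of S phase genes at 20 CPM or more on the x axis and its number of G2 and mitosis genes, without the 5 of the rule, on the y axis; colours give the class. The 16 cycling wells have 63 to 155 G2 and mitosis genes, above all resting wells (7 to 57), while S phase genes run from 8 to 60 in cycling and from 0 to 39 in resting wells.

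The cycling wells differed among themselves in S phase genes. Of the 16, 7 had 40 to 60 S phase genes at 20 CPM and the other 9 had 8 to 29. Ccnb1 was below 20 CPM in 3 of those 7 wells (median 20.6 CPM) and was 373 CPM or more in all 9 others (median 874 CPM). The number of G2 and mitosis genes was 83 to 127 in the 7 and 63 to 155 in the 9. The grouping was made after the values were seen. Of the 20 precursors in neither class, 1 well of 1025s_182s had 88 G2 and mitosis genes, with Top2a at 427 CPM, Ccnb1 at 959 CPM and no read of the other 3 genes of the rule.

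Across all genes, the reads of each class were summed and scaled to CPM, with 1 CPM added to each side of a ratio. A gene was called where it differed 2-fold or more and reached 10 CPM in the class where it was higher. Of 11678 genes at that level, 1874 were called higher in cycling wells (16.0%) and 2666 lower (22.8%). A call was held if it was also 2-fold or more as a mean of the single wells, within the 600s_182s wells, and with any 1 well of either class left out. By that rule 705 genes were held higher (6.04%) and 1850 held lower (15.8%). With 16 cycling and 182 resting wells, leaving out 1 well does not weigh alike on higher and lower calls. The larger number held lower is therefore not read as a trait of the cycling wells. The held lower genes were sparse: they had reads in a median of 18.7% of thinned resting wells, and the held higher genes in 43.8% of thinned cycling wells. Held differences with reads in at least 50% of the thinned wells of the higher class, called broad below, numbered 341 higher (2.92%) and 136 lower (1.16%). The median log2 ratio over all genes was -0.06.

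The cell cycle lists, together with histone, kinesin, centromere and similar gene families taken by symbol, held 388 genes at this level, the 5 of the rule among them. Without those 5, which chose the classes, 250 of 383 were held higher and 10 held lower, and they took 6.37% of the reads of cycling wells and 1.79% of those of resting wells. The kinesin symbols also take motors with no part in mitosis. G2 and mitosis genes without the 5 had a median log2 ratio of 4.09, with 162 of 182 held higher, and these too follow the choice of the classes. Among them Cdca3, which helps bring about mitotic entry, had 429 CPM in cycling and 0.55 CPM in resting wells (log2 8.11), and Ube2c, the conjugating enzyme of the anaphase-promoting complex, 480 and 1.05 CPM (7.87). Ccnb2, cyclin B2, lay at 0, 490 and 1376 CPM in the lowest, median and highest cycling well and at 0, 0 and 71.1 CPM in resting wells. Nuf2 of the kinetochore (8.09), the kinase gene Pbk (8.09), Cdca2 (7.81), Fam64a (7.71), the mitotic kinase gene Plk1 (7.69), Ckap2l of the spindle (7.50) and the midzone gene Prc1 (7.48) were the others among the 10 largest outside the rule. These 10 genes were all higher in the cycling wells of 613s too.

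S phase genes were higher by less, with a median log2 ratio of 2.37 and 60 of 85 held. The largest was that of Asf1b, a histone chaperone (181 against 0.52 CPM), on reads in 7 cycling wells. Pcna, the sliding clamp of DNA polymerase, was at 309 CPM in cycling and 53.9 CPM in resting wells (2.50). Nucleotide synthesis had 6 of 25 genes held higher: Tk1 (5.69), Rrm2 (5.56), Tyms (3.68), Rrm1, Dut and Dtymk, the enzymes that make and guard the DNA building blocks. In G1 and G1/S control, 9 of 17 genes were held higher, led by Mybl2 (6.19), with E2f1 at 4.85 and Ccne1 at 4.05, but each of these 3 on reads in 3 to 5 cycling wells, and none of the 9 was broad. Ccnd1, the cyclin that growth factors induce in G1, was at 1087 CPM in cycling and 1025 CPM in resting wells (0.09), and Ccnd2 at 458 and 222 CPM (1.04). Cdc25a was held lower, at 3.19 against 10.5 CPM. Pcna, Tk1, Rrm2, Tyms, E2f1, Ccne1, Ccnd1 and Ccnd2 were picked for their known roles after their values were seen.

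Outside these lists 11290 genes remained, of which 1577 were called higher and 2652 lower, 450 and 1840 were held, and 186 higher and 134 lower were broad. The 15 largest broad ratios upward that have a gene name ran from 2.84 to 7.35 on the log2 scale, and several of those genes have a known place in cell division although no list held them. Arhgef39, a guanine nucleotide exchange factor, was at 211 CPM in cycling wells (199 to 224) and 0.30 CPM in resting wells (0.178 to 0.475). Its cycling wells lay at 0, 107 and 880 CPM (lowest, median and highest), and 10 of the 16 were above the highest resting well, at 7.20 CPM. Neurl1b, a ubiquitin ligase for Notch ligands, was at 152 against 4.39 CPM (4.82), but had no read in the cycling wells of 613s.

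Cdkn2c encodes p18, an inhibitor of the cyclin D kinases Cdk4 and Cdk6. It was at 331 CPM (316 to 347) in cycling wells and 15.2 CPM (14.2 to 16.2) in resting wells, a log2 ratio of 4.36. The cycling wells lay at 0, 272 and 1192 CPM and the resting wells at 0, 0 and 649 CPM. Reads were present in 14 of 16 cycling and 75 of 182 resting wells, and 2 resting wells were at or above the cycling median. In 613s the level was 39.4 against 8.09 CPM.

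Pkmyt1, the kinase that holds Cdk1 inactive until mitosis, was at 307 against 31.8 CPM (3.23). Its cycling wells lay at 0, 164 and 803 CPM, its resting wells at 0, 2.85 and 565 CPM, and 13 of 16 cycling wells were above the resting median. Over the 16 cycling wells its level followed the summed S phase genes, with a Spearman correlation of 0.88, and not the G2 and mitosis genes, at -0.40. Hat1, which acetylates newly made histone H4, showed the same order (0.76 and -0.33) and was at 185 against 18.4 CPM (3.26). Arhgef39 stood the other way, at -0.32 with S phase and 0.52 with G2 and mitosis genes. The points of these correlations are wells that share a library type and a CPM total, and 16 wells allow no more than a description.

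The other genes of this group have varied known roles. Mns1, a protein of cilia and flagella (log2 4.21), smoothelin gene Smtn (4.05) and Rtkn2 (3.82) came next in size. Fignl1, an ATPase of DNA recombination, was at 89.9 against 6.93 CPM (3.52) and Ccdc77 at 71.8 against 5.71 CPM (3.44). Without 1 cycling well they were at 2.74 and 2.82. Dnph1, a nucleotide hydrolase (3.23), and Srd5a1, a steroid reductase (3.19), had median cycling wells of 102 and 151 CPM. The last 3 act at the nucleus: Rcc1, the exchange factor of the Ran GTPase (3.11), and the nuclear pore genes Aaas (2.91) and Ndc1 (2.84). In every one of the 15 genes some cycling wells had no read, so the classes overlapped.

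Another 3 broad higher genes, picked after their values were seen, were present in nearly all cycling wells. Hdgf, a growth factor of the nucleus, was above the resting median in 15 of 16 cycling wells, with medians of 317 and 7.53 CPM. Trim28, a corepressor, was above it in 13 (452 and 16.5 CPM). Xpo1, the nuclear exporter, was above it in 15 (23.4 and 0 CPM). For all 3 the highest resting well was above the highest cycling well.

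The 15 largest broad ratios downward ran from -4.05 to -2.32. Pik3ip1, a membrane protein that restrains phosphatidylinositol 3-kinase, was at 12.9 CPM in cycling wells (10.1 to 16.3) and 229 CPM in resting wells (225 to 233). Its cycling wells lay at 0, 6.21 and 162 CPM and its resting wells at 0, 16.9 and 2600 CPM, so 65 resting wells were above every cycling well and 13 of 16 cycling wells below the resting median. Tex264, a receptor that feeds endoplasmic reticulum to autophagy, was at 19.0 against 164 CPM (-3.04), with 63 resting wells above every cycling well.

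Other genes of this group act in membrane traffic, the cell surface and metabolism. Among traffic genes were Gbf1 at the Golgi (-2.51), Ehd3 of endocytic recycling (-2.45) and Atp6v0a2, a subunit of the vacuolar proton pump (-2.33). At the surface or secreted were the guidance gene Sema5a (-2.59), the synaptic adhesion gene Slitrk1 (-2.54) and Gas6, the ligand of Axl-type receptors (-2.52). Dbnl, an actin adaptor (-3.22), Tmem179 (-2.85), the deubiquitinase Usp34 (-2.62), the ribosome assembly factor Sbds (-2.57), the scaffold Slc9a3r2 (-2.57) and the fatty acid oxidation gene Acadvl (-2.32) were the other genes described here. Without 1 cycling well, Dbnl, Tex264, Tmem179, Sbds, Slitrk1, Gas6, Gbf1, Ehd3 and Acadvl moved by over 1.5 times, to between -3.91 and -3.00. For each of the 15, between 9 and 13 of the 16 cycling wells lay below the resting median, and the classes overlapped.

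**Figure D2:**
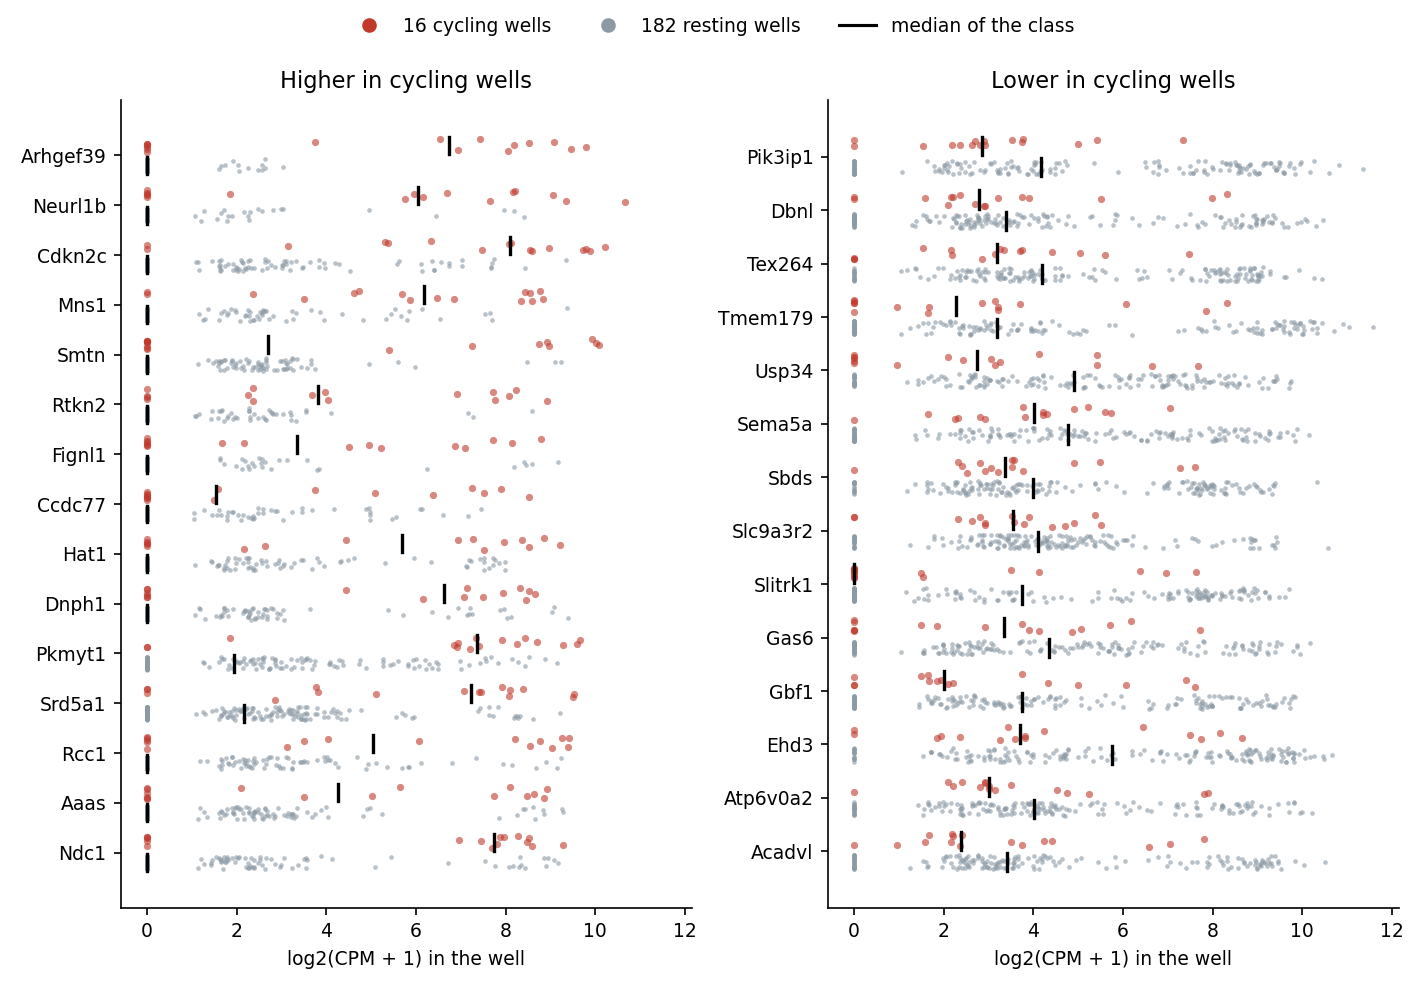
Points are wells, red for the 16 cycling and grey for the 182 resting, placed by log2(CPM + 1) of the gene on the x axis; black marks are class medians. The 15 genes on the left are those with the largest broad ratio upward outside the cell cycle lists (log2 2.84 to 7.35) and the 14 on the right are among the 15 downward (-4.05 to -2.32); for Arhgef39 all resting wells are below 10 of the cycling wells, and for each gene some cycling wells lie among the resting ones.

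Of these 30 genes, 13 share exon bases with a gene on the other strand in the annotation, 10 of them at least 200 bases. The largest overlaps were those of Mns1 (2842 bases, with Tex9), Usp34 (2137 bases, with Ahsa2) and Acadvl (1151 bases, with Dvl2). SMART-seq2 does not mark the strand, so reads of such pairs cannot be told apart, and Tex9 was held higher and Dvl2 held lower as well.

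The 2 cycling and 23 resting wells of 613s gave a look at the calls made in 600s_182s in wells that had no part in them. Genes counted here reached 10 CPM in at least 1 class of both sets. Of 213 cell cycle list genes called higher in 600s_182s, 84.5% were also higher in the cycling wells of 613s, with a median log2 ratio of 3.70. The 613s cycling wells were chosen by the same rule, and Top2a, Mki67, Cdk1 and Ccnb1 are among the 213, so this share describes the choice. It was also not limited to genes with reads in many wells, so it is no measure for the shares that follow. Of the genes outside the lists called higher in 600s_182s with reads in at least 50% of thinned wells, 228 of 469 were higher in 613s (48.6%). This stands beside 41.2% of all 4305 genes outside the lists with such reads in either class. Of those called lower, 65.9% were lower in 613s, beside 58.8% of all such genes. Both shares were a few percentage points above those of all such genes, and the ratios given above for single genes rest mainly on 600s_182s. Of the 15 named genes upward, 11 were higher in the 613s wells and 4, Neurl1b, Smtn, Hat1 and Aaas, were lower; all 15 downward were lower, though the 613s wells also entered the choice of those genes.

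**Figure D3:**
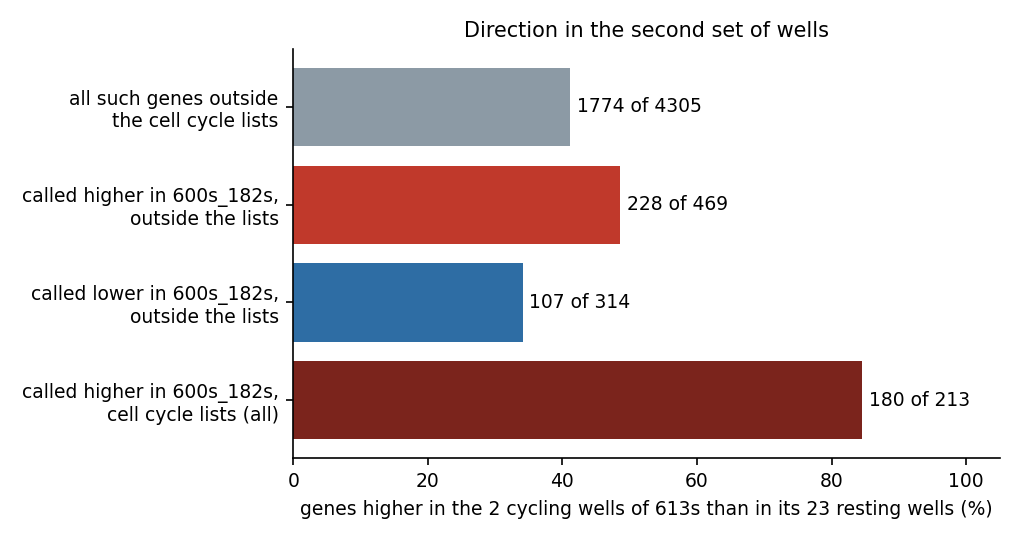
Bars give the percentage of genes with a higher CPM in the 2 cycling wells of 613s than in its 23 resting wells, for genes sorted by their call in the 600s_182s wells; numbers are genes. Cell cycle genes called higher stand at 84.5%. They include genes of the rule that chose the wells and were not limited by the share of wells with reads. Other genes with reads in at least 50% of wells stand at 48.6% where called higher and 34.1% where called lower, beside 41.2% of all such genes.

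Promoters were compared for the elements named above. The window ran from 250 bases before to 50 bases after each start in RefSeq's annotation of GRCm38.p6, and matches were sought on both strands for the CHR element (TTTGAA or TTCGAA), the CCAAT box (CCAAT) and an E2F site (TTTGGCGC, TTTCCCGC, TTTGCCGC or TTTCGCGC). Of the cell cycle list genes held higher, 200 had an entry with 223 promoters, of which 49.8% held a CHR element, 65.0% a CCAAT box and 16.6% an E2F site. Over all 32851 promoters the shares were 19.2%, 37.4% and 2.26%, and over genes at 10 CPM 13.1%, 37.9% and 3.92%. Both CHR and CCAAT were in 37.7% of the cell cycle promoters and 7.52% of all. The broad higher genes outside the lists, with 176 promoters, had 17.0%, 47.7% and 9.66%. The broad lower genes, with 130 promoters, had 9.23%, 37.7% and 3.85%. Of the 15 named genes upward, 13 had an entry: Fignl1, Ndc1, Neurl1b and Rcc1 held a CHR element, and Neurl1b alone also held a CCAAT box. Of the 10 named cell cycle genes 7 had an entry, and 6 of those held both.

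The sequences of 4 promoters are given as examples, 5′ to 3′ on the strand of the gene, with matches to any of the 3 elements on either strand in capitals. Cdk1 (chr10:69352863-69353162 on the minus strand), a gene of the rule, and Ccnb2 (chr9:70421505-70421804 on the minus strand) are mitotic genes. Neurl1b (chr17:26414609-26414908 on the plus strand) lies outside the lists and is not typical of the genes there. Among the named genes upward with an entry, Neurl1b alone held both a CHR element and a CCAAT box. Both elements were in 5.68% of promoters of the broad higher genes outside the lists and in 7.52% of all promoters. Pik3ip1 (chr11:3330481-3330780 on the plus strand), the largest of the named broad ratios downward, is a gene lower in cycling wells.
Cdk1: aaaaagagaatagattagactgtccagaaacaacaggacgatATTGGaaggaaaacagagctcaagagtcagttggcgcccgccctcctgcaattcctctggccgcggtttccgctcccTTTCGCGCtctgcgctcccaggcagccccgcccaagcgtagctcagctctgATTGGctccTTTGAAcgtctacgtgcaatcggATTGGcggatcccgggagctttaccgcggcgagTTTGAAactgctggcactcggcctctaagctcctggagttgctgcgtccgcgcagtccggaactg
Ccnb2: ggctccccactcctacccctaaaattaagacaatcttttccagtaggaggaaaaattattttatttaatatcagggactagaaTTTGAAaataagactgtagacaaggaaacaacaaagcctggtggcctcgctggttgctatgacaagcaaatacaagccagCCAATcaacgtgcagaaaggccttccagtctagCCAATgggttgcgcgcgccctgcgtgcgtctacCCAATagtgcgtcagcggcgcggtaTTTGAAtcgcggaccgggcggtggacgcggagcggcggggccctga
Neurl1b: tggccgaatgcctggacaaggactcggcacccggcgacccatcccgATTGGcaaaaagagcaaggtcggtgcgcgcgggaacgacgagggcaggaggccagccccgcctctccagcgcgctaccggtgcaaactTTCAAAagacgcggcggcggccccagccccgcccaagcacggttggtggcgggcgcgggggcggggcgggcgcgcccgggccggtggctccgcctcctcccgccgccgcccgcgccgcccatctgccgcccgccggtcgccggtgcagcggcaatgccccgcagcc
Pik3ip1: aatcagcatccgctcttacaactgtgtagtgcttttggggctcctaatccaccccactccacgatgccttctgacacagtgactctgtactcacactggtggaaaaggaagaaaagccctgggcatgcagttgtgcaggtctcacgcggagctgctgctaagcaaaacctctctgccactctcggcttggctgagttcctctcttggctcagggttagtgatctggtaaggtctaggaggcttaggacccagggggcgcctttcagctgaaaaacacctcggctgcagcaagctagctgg
The windows of Cdk1 and Ccnb2 each hold 2 CHR elements and 3 CCAAT boxes, that of Cdk1 also 1 E2F site. That of Neurl1b holds 1 of each of the first 2, and that of Pik3ip1 none. A match describes these letters and shows no binding.

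For the lists below, the shares of held genes stand beside those over all genes, 6.04% held higher and 15.8% held lower, and nothing is read from a share near these. By its rule a held gene stays at 2-fold or more without any 1 well of either class. Values given below as without 1 well leave out 1 cycling well. By that measure 42 of the 126 named held genes moved by more than 1.5 times, and the value is given for those described. Shifts without single resting wells are not given, though 1 resting well can weigh on a class level. The highest resting well had 4604 CPM of Polr1b, 2561 CPM of Mthfd1l and 1024 CPM of Hapln4. Their levels over the resting class were 32.4, 25.5 and 11.0 CPM. In 613s, 10 of the 47 named genes held higher were lower and 7 of the 79 held lower were higher. The 47 include the genes of the rule and the named cell cycle genes, which follow the choice of the classes. Of all 9331 genes at 10 CPM in at least 1 class of both sets, 64.7% were lower in the cycling wells of 613s. The 613s wells also entered the choice of the named genes, so these counts are no independent check.

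The inhibitors of cyclin-dependent kinases and quiescence genes were on the whole slightly higher in cycling wells, with a median log2 ratio of 0.48 and 18 of 26 above 0. Within 600s_182s the median was 0.23. Of the 26, 3 (11.5%) were held higher, all broad, and none held lower. Besides Cdkn2c these were Cdkn2d, encoding p19 of the same family, and Cdkn1a, encoding p21. Cdkn2d was at 246 CPM (233 to 259) in cycling and 37.1 CPM (35.6 to 38.7) in resting wells (2.70). Its wells lay at 0, 163 and 652 CPM and at 0, 3.33 and 1061 CPM, and no read was found in the cycling wells of 613s. Cdkn1a was at 90.9 against 27.6 CPM (1.68), with 10 of 16 cycling wells above the resting median of 0. Gas1, a growth arrest gene, was the lowest of the list at 43.8 against 122 CPM (-1.46), a difference that did not hold and was -2.10 without 1 well. In the p53 list the median was -0.01. Trp53 itself, the gene of p53, was held higher at 200 against 74.2 CPM (1.42), above the resting median in 12 of 16 cycling wells, and Atr, a kinase of the DNA damage response, was held lower at 5.32 against 18.1 CPM (-1.60, and -3.06 without 1 well) on reads in 5 cycling wells.

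In the list of growth factor receptors and their targets, 9 of 31 (29.0%, beside 15.8% of all genes) were held lower and 1 held higher, with a median of -0.40, but none of the 10 was broad. The 31 include Pdgfra (0.15), which the rule used. Among the receptors, Fgfr1 was at 12.6 against 142 CPM (-3.39), Erbb3 at 8.33 against 95.5 CPM (-3.37) and Fgfr2 at 2.30 against 31.6 CPM (-3.30). Fgfr1 was below its resting median in 12 of 16 cycling wells and Fgfr2 in 13. Erbb3 was below it in 9 and above it in 7. These resting medians were all under 10 CPM. Within 600s_182s the log2 ratios were -3.53 for Fgfr1, -2.81 for Erbb3 and -1.76 for Fgfr2, the last at 2.36 against 10.3 CPM. Myc, the growth regulator, was at 6.38 against 50.3 CPM (-2.80), with reads in 6 cycling and 60 resting wells. Without 1 well Fgfr1 was at -4.46 and Myc at -4.56. Nrg1, a ligand of ErbB receptors, was at 0.18 against 23.0 CPM on reads in 1 and 35 wells. Id1, an inhibitor of basic helix-loop-helix factors, was higher at 28.9 against 5.27 CPM (2.25, and 1.25 without 1 well).

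Genes of precursor identity were mostly lower by a small amount: 35 of 42 were below 0, with a median of -0.47. The 42 include Pdgfra (0.15), Cspg5 (-0.47) and Ptprz1 (-0.37), whose levels the rule used to choose the wells. Of the 42, 3 (7.14%, beside 15.8% of all genes) were held lower and none higher. Ednrb, the endothelin receptor B, was at 306 CPM (292 to 321) in cycling and 736 CPM (729 to 743) in resting wells (-1.26). Its cycling wells lay at 0, 285 and 1033 CPM, its resting wells at 0, 567 and 5992 CPM, and 13 of 16 were below the resting median. Traf4, a signalling adaptor, was at 277 against 722 CPM (-1.38), with medians of 236 and 634 CPM and 14 of 16 cycling wells below the resting median. Rasgrf1, an exchange factor for Ras, was at 16.0 against 152 CPM (-3.18, and -5.26 without 1 well). In 613s these 3 were lower too (-2.48, -1.89 and -7.23). The lineage factor Olig2 was at 1258 and 1238 CPM (0.02), and Sox10, chosen after its value was seen, at 645 and 1138 CPM (-0.82), which was not called. Sox5 was the highest of the list (0.29), but was at -0.42 without 1 well.

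Genes of the committed stage and of myelin lay on both sides of 0, with 10 of 29 and 10 of 26 above it. The committed list includes Enpp6 (0.13), which the rule kept below 200 CPM. In the committed list, whose median was -0.19, Sox11, a factor of immature neural cells, was held higher at 112 against 40.6 CPM (1.44). It was above the resting median of 0 in 13 of 16 cycling wells. Gng4 was also held higher (1.83, 1.22 without 1 well and -0.96 in 613s), but only 9 cycling wells were above its resting median of 6.15 CPM and 7 were below. Mycl (-1.64, and -3.33 without 1 well) and Parm1 (-1.78) were held lower, although 9 of 16 cycling wells were above the resting median of Parm1. Gpr17, the receptor that marks the committed stage, was at 660 and 1209 CPM (-0.87), and Neu4 at 501 and 1056 CPM (-1.08), which was not held. Both were chosen after their values were seen. The 6 markers of committed precursors, Enpp6 among them, summed to 1617 CPM in cycling and 2871 CPM in resting wells. Bcas1 (-0.67) and Bmp4 (-0.19) were also lower, and Fyn (0.09) and Enpp6 were not. The part of committed wells in these values was not tested. In the myelin list the median was -0.18 and turned to 0.23 within 600s_182s. Gjc3, a connexin of oligodendrocytes, was held lower at 145 against 388 CPM (-1.41), with 13 of 16 cycling wells below the resting median, and Klk6 was held lower on reads in 3 cycling wells. Cntn2 was the highest (1.05, and 0.23 without 1 well) and not held. Markers of mature oligodendrocytes summed to 1895 CPM in cycling and 2107 CPM in resting wells, and 16 of 16 and 181 of 182 wells had at least 3 of the 8 at 20 CPM; their part in these values was not tested.

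In the Notch pathway 4 of 13 genes (30.8%, beside 15.8% of all genes) were held lower and none higher, with a median of -0.53, and none was broad. Hes5, a target of Notch in precursors, was at 40.4 against 166 CPM (-2.01, and -3.23 without 1 well), with reads in 8 of 16 and 113 of 182 wells. Numb (-4.72), Numbl (-3.89), both inhibitors of Notch, and Hey2 (-3.14) had reads in 3 to 5 cycling wells. Hes1 was the highest, at 87.6 against 47.5 CPM (0.87). In the Wnt list 3 of 16 (18.8%) were held lower, a share near that of all genes (15.8%). They were Apcdd1 (-2.41), Rnf43 (-2.25) and Apc (-1.59), and without 1 well Apcdd1 was at -4.46 and Rnf43 at -4.34. Of these Apc was broad, but its cycling wells lay on both sides of the resting median, 8 and 8. Fzd3 was the highest (1.18).

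Genes of RNA handling showed a shift upward that was spread over the list. RNA processing genes had a median of 0.78, with 24 of 30 above 0, 4 (13.3%, beside 6.04% of all genes) held higher, all broad, and 1 held lower. Srsf2, a splicing factor, was at 597 CPM (577 to 617) in cycling and 215 CPM (211 to 219) in resting wells (1.47). Its cycling wells lay at 10.5, 460 and 1143 CPM, its resting wells at 0, 158 and 1544 CPM, and 14 of 16 were above the resting median. Hnrnpab, an RNA-binding protein, was at 291 against 96.9 CPM (1.58), above the resting median in 15 of 16 wells, but lower in 613s (-1.79). Snrpd1, a core protein of spliceosomal particles (1.53), was above it in 14, and Msi2 was held lower (-1.55, and -2.30 without 1 well). Chromatin regulators had a median of 0.37, with 2 of 39 held higher, the linker histone gene H1fx (1.71) and the lamin gene Lmnb2 (1.64, but -5.59 in 613s), and 6 held lower, among them the lamin gene Lmna (-1.84), Ezh1 (-3.62), Tet3 (-2.61) and Hdac9 (-1.83), none of them broad. Without 1 well Tet3 was at -3.75 and Hdac9 at -3.42. Tet2 was the highest (1.79, and 0.96 without 1 well) and not held. For Lmna 10 of 16 cycling wells were above the resting median although the summed level was lower.

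Growth and metabolism lists moved by less than 2-fold in their medians. Cytosolic ribosomal protein genes had a median of 0.34, with 32 of 41 above 0 and none called, from Rps3 (-0.37) to Rpl15 (0.72). Such genes have many pseudogene copies that can take part of their reads. Ribosome biogenesis had a median of 0.25, and 5 of 32 genes (15.6%, the share of all genes being 15.8%) were held lower, among them Nop2 (-4.64), Polr1b (-3.90) and Bop1 (-3.80), none broad, and without 1 well Bop1 was at -4.55. Rrp1b was the highest (1.68, and 0.47 without 1 well) and not held. Oxidative phosphorylation had a median of 0.17, with Cox7a2 highest (1.20) and Ndufs1 held lower (-1.94, and -3.16 without 1 well), though it was higher in 613s (1.23). Cholesterol and fatty acid synthesis had a median of 0.48 with 25 of 29 above 0 and Stard4 the highest (1.57, and 0.93 without 1 well), while Srebf1, the factor that activates fatty acid synthesis genes, was held lower at 71.1 against 292 CPM (-2.02).

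Glycolysis genes had a median of -0.28, and the highest, Slc16a3 (2.38), was at -0.73 without 1 cycling well. Aldoc, the aldolase of glia, was held lower at 198 CPM (187 to 210) against 620 CPM (614 to 627), a log2 ratio of -1.64. Its cycling wells lay at 3.77, 20.3 and 757 CPM and its resting wells at 0, 498 and 2181 CPM, and 14 of 16 cycling wells were below the resting median. Clu, a secreted chaperone picked after its values were seen, was at 228 against 841 CPM (-1.88), with 15 of 16 below. Both are also high in astrocytes. The 8 astrocyte markers, Aldoc among them, summed to 1174 CPM in cycling wells (103 to 1829 over wells) and 2081 CPM in resting wells (299 to 6743). Among them Aqp4 was at 0.35 and 16.3 CPM, Gja1 at 0.89 and 9.96 CPM and Gfap at 22.9 and 27.2 CPM. Their part in the lower level of these genes was not tested.

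Serine and one-carbon genes had a median of -0.09. Mthfd2, the mitochondrial enzyme of folate metabolism, was held higher at 73.9 against 13.5 CPM (2.37, and 1.37 without 1 well) on reads in 7 cycling wells. Of 5 genes held lower (21.7% of 23, beside 15.8% of all genes), Mthfd1l was at -3.68, Amt at -2.14 and Asns at -2.14 (-4.99 without 1 well), and Aldh1l1 was also among them. Aldh1l1, an astrocyte enzyme, had no read in cycling wells, at least 43.1-fold below its 22.9 CPM in resting wells if 3 reads over the class are taken as the limit, and only 38 resting wells had a read of it.

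Of 31 glutamate and GABA receptor genes 8 (25.8%, beside 15.8% of all genes) were held lower, with a median of -0.37, and 1 of those, Gabbr1, was broad. Grik5 (-3.97), Gabra2 (-3.88), Grm4 (-3.87), Gabrb1 (-3.26) and Grin1 (-2.34) had reads in 1 to 8 cycling wells, and without 1 well Gabrb1 was at -5.13 and Grin1 at -4.59. Grik2, a kainate receptor subunit, was held higher at 146 against 40.4 CPM (1.83), above the resting median in 12 of 16 wells and higher in 613s (2.36). Of 34 channel genes 6 (17.6%, a share near that of all genes) were held lower, with a median of -0.47: Kcnn2 (-3.22), Kcna2 (-3.03), Cacna1e (-2.90), Hcn2 (-2.66), Kcnj16 (-1.53) and Kcna6 (-1.49). Without 1 well Cacna1e was at -4.61, Hcn2 at -3.68, Kcnj16 at -2.28 and Kcna6 at -2.40. In 613s Kcna6 (1.64) and Hcn2 (1.04) were higher. The highest, Kcnc1 (1.53), was at -0.17 without 1 cycling well. Kcnj16, an inward rectifier, was at 67.2 against 196 CPM, with 12 of 16 cycling wells below the resting median. Neuronal markers summed to 135 CPM in cycling and 273 CPM in resting wells, with 1 of 16 and 22 of 182 wells having at least 3 of them at 20 CPM; their part was not tested.

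Of 49 adhesion and guidance genes 9 (18.4%, a share near the 15.8% of all genes) were held lower and none higher, with a median of -0.16, and the 4 broad ones were Sema5a, Lrrc4c (-1.61), Sema6a (-1.43) and Plxnb3 (-1.36). Lrrc4c was higher in 613s (0.82). Gabbr1, Sema6a and Plxnb3 are named after their values were seen. L1cam (-3.11), Plxna2 (-2.65), Epha4 (-2.56) and Lrrtm4 (-1.95) were held on reads in 4 to 7 cycling wells, and without 1 well L1cam was at -5.21, Plxna2 at -4.21 and Lrrtm4 at -2.63. Nrp1 was the highest (1.63, and 0.14 without 1 well) and not held. Matrix genes had a median of -0.47, with 27 of 35 below 0. The member at that median is Cspg5, whose level the rule used to choose the wells. Of the 35, 3 (8.57%) were held lower: Hapln4, Sdc1 and Spock1, the first 2 with no read in cycling wells and Spock1 at -1.66 (-4.16 without 1 well). Adamts17, the highest (2.37), rested on 1 well: without it the log2 ratio was -0.93. Cytoskeletal genes had a median of 0.05. The tubulin genes Tuba1c (5.14) and Tubb6 (2.52, 1.70 without 1 well and -0.73 in 613s) were held higher, and Dpysl3 (-1.39), Dcx (-2.60, and -4.16 without 1 well) and Stmn2 (-3.36) held lower. Stress genes had a median of -0.26, from Ier5 (-2.05) to Dnajb1 (1.27). Of the long noncoding RNAs, Dleu2 was held higher (1.55), and Meg3 (-1.40), Ftx (-1.59) and Snhg11 (-2.78) lower. Ftx was at -3.18 without 1 well and was higher in 613s.

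**Figure D4:**
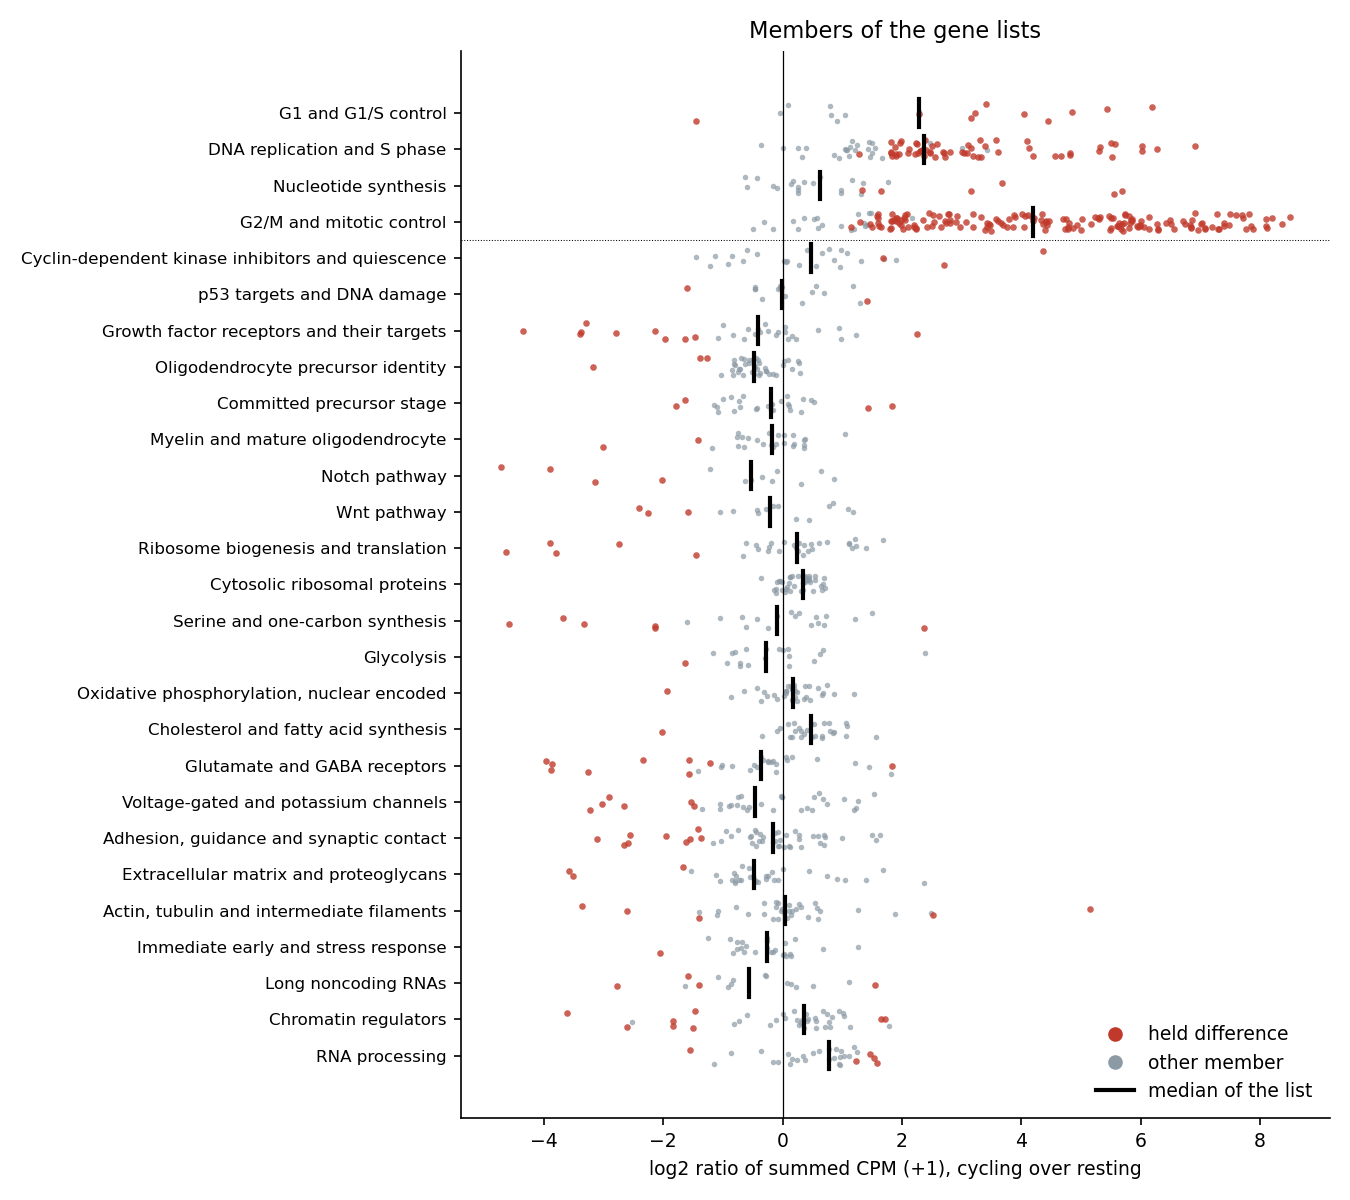
Each row is a gene list and each point a member with at least 10 CPM in a class, placed by its log2 ratio of cycling over resting wells; red points are held differences and black marks list medians. The 4 cell cycle lists above the dotted line, which include the 5 genes of the rule, have medians of 0.62 to 4.19. Those below it, of which some hold precursor genes of the rule, lie between -0.56 and 0.78.

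In the 20 precursors of neither class, which were chosen by having 1 or 2 of the 5 genes, G2 and mitosis genes without those 5 had a median log2 ratio over resting wells of 0.93. The well of 1025s_182s described above held 42.1% of their reads of these genes, and without it the median was 0.30. In the other 19 wells S phase genes were at 0.10 and cytosolic ribosomal protein genes at 0.44. Precursor identity genes, those of the rule included, were at -0.03, where all genes had -0.23. Cdkn2c was at 78.6 CPM over the 20 wells and 4.09 CPM without that well, and Arhgef39 at 85.1 and 1.36 CPM. Pkmyt1 was at 78.6 and 88.0 CPM, Pik3ip1 at 56.2 and 62.9 CPM and Ednrb at 473 and 491 CPM. These wells are set against the same resting wells as the cycling ones.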

How the data were processed

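Whole-number read counts per gene for 46517 genes in 1152 wells were deposited by the authors as 1 table. The submitters' processing notes name TopHat2 (2.1.1), featureCounts, Subread (1.4.6-p5), SAMtools (0.1.18) and the build GRCm38 (mm10). No strand setting is given in the sources used here. Since no label places a well in a mouse or line, wells were 1 pooled sample and no test was made. The classes, members, gene lists and rules for naming were chosen with earlier results of these data known. Wells under 50000 reads were left out, as were those outside the precursor rule. Counts of each class were summed to CPM (pseudocount 1). Named outside the cell cycle lists are the 15 largest held, broad ratios in each direction with a gene name, then 10 cell cycle genes, and from each other list held members (up to 6) with its highest and lowest; a few of these are not reported here but stay in the counts. Thinning drew 50000 reads per well once. The call rule was tested on simulated data. Doublets were not removed. Alternatives covered scaling (edgeR 4.0.16), pseudocount, level, class rule, depth and wells left out. Python 3.11.15, numpy 2.4.6, pandas 2.3.3 and scipy 1.17.1 were used. GENCODE vM21, which held 42052 of the symbols, gave exons and strands.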

Additional observations from a re-analysis of the deposited data

Results flagged for a closer look

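Of the 20 precursor wells that entered neither class, 1 had more G2 and mitosis genes at 20 CPM (88 of 184) than every resting well, of which the highest had 57. It lay in the set 1025s_182s, where no well met the cycling rule, and had 8 S phase genes, Top2a at 427 CPM, Ccnb1 at 959 CPM and no read of Mki67, Cdk1 or Aurkb. It stands out because it carries the signal of the cycling wells in a well that the comparison leaves out.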

How the results depend on the processing

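No paired analysis was possible because wells carry no replicate number and all belong to 1 sample. The numbers of called genes, 1874 higher and 2666 lower, moved by more than 1.5 times, among the alternatives run, only with the level required of a gene: at 50 CPM they were 1094 and 951, and at 1 CPM the lower calls were 4633. Leaving out each cycling well in turn gave 1849 to 1921 higher and 2684 to 2841 lower, and 163 to 186 and 124 to 155 for broad held genes outside the lists (186 and 134 as reported). Those broad counts were 191 and 141 with another random draw of the thinned reads, chosen after seeing the data. The share of cycling precursors ran from 6.88% (4 of the 5 genes) to 9.63% (2 of the 5). Single cycling wells turned the sign of 6 of 146 named genes. Of those, 3 were called: with each cycling well left out in turn, Kcnc1 ran from -0.17 to 1.68, Adamts17 from -0.93 to 2.66 and Slc16a3 from -0.73 to 2.65. The other 3, not called, were Sox5 (-0.42 to 0.42), Pdgfra (-0.02 to 0.25) and Enpp6 (-0.01 to 0.25). Leaving out 1 cycling well moved 52 named genes by more than 1.5 times. Of 27 list medians, 5 moved by more than 0.585 under any of the alternatives: p53 genes (0.59 as a mean of wells), G2 and mitosis genes (3.32 with 5 CPM added), G1 genes (1.04) and serine genes (0.55) at 50 CPM, and S phase genes (3.38) without the 66 resting wells that had as many S phase genes as a cycling well. Leaving out wells with 3 markers of any other cell type left no well and was not run; without astrocyte and mature oligodendrocyte markers, added after seeing the data, 12 cycling and 120 resting wells gave 2100 higher and 2923 lower calls. The 16 cycling wells, 14 of them in 1 set, limit what single genes can show.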
